A study of Mus musculus with 4 samples.

Results

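The genes followed here are 8 enzymes and transporters that make, convert or move the lipids of the skin barrier: Sptlc1, Sptlc2, Ugcg, Smpd1, Alox12b, Aloxe3, Abca12 and Elovl4. Their probes were found by gene symbol in the platform annotation, by a rule that uses no measured value, and all were kept: 11 of the 25697 probes on the array, for 8 of 16593 named genes. All 8 genes were detected on all 4 arrays (detection p under 0.01) by at least 1 probe. Of the 11 probes, 10 were detected on all 4 arrays, and the other, a second probe for Abca12, on 1 array. The samples were primary keratinocytes, the main cell of the epidermis, taken from newborn mice of the 129 background with a Pou5f1::GFP reporter transgene. All 4 cultures had been transduced with reprogramming transcription factors that the design text does not name. The groups were 2.5 uM DAPT on day 4, no DAPT on day 4, 2.5 uM DAPT on day 7 and no DAPT on day 7, with 1 array each. DAPT inhibits gamma-secretase, the protease that frees the intracellular part of Notch receptors, so the design asks how transcripts of these transduced cells differ when that cleavage is blocked. Groups follow the sample titles, since the treatment field reads DAPT for every sample.

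The outermost layer of the epidermis holds water in through sheets of lipid built largely from ceramides. Serine palmitoyltransferase, made of the Sptlc1 and Sptlc2 subunits, starts ceramide synthesis, and Elovl4 lengthens fatty acids to the very long chains that epidermal acylceramides carry. Ugcg adds glucose to ceramide, Abca12 loads glucosylceramide into the lamellar granules that granular cells secrete, and Smpd1, acid sphingomyelinase, releases ceramide from sphingomyelin. The lipoxygenases Alox12b and Aloxe3 act in sequence on the linoleate of acylceramide, a step toward the lipid envelope bound to the cornified cell. In people, inherited loss of ALOX12B, ALOXE3 or ABCA12 causes ichthyosis.

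The arrays differed in brightness. Mean intensity was 365 with DAPT and 472 without DAPT on day 4, and 416 with DAPT and 323 without DAPT on day 7. Before normalization, 2 of the 8 genes (Ugcg and Elovl4) were brighter with DAPT on day 4 and all 8 were on day 7, and these directions run with the brightness of the arrays. Values below are therefore log2 intensities after background correction and quantile normalization, and each difference is between single arrays with no replicate check. As a guide to error, different probes of a gene differed with an SD of 0.50 for the difference with DAPT on day 4, 0.34 on day 7, 0.59 for day 7 against day 4 without DAPT and 0.27 for the same days with DAPT. This SD compares probes on the same 2 arrays, so it holds no variation between cultures or repeat arrays. A probe's level was compared with its own level on other arrays, never with another gene's. The marker sums below add levels over genes, so the brightest probes weigh most in them, and each sum is set only beside the same sum on other arrays. The keratinocyte label was checked on markers: all 8 basal markers were detected on every array, as were 7 of 11 spinous and granular markers, while Krt1, Dsg1a, Dsc1 and Tgm3 were detected on none. The basal markers summed to normalized intensities of 32941 with DAPT and 29331 without DAPT on day 4 and 18312 with DAPT and 14969 without DAPT on day 7, and all 11 spinous and granular markers on the array to 4719, 4284, 5037 and 3072 in the same order of arrays. All 7 fibroblast markers were also detected on every array, with sums of 14258 with DAPT and 13829 without DAPT on day 4 and 27260 with DAPT and 26401 without DAPT on day 7. Melanocyte markers summed to 571 with DAPT and 577 without DAPT on day 4, and 266 with DAPT and 880 without DAPT on day 7. On day 7 Tyrp1 and Mlana stood at -2.24 and -1.49 with DAPT, with another Tyrp1 probe at -0.27. Dct and Pmel were not detected with DAPT on day 7, and the other Pmel probe stood at -0.10. On day 4 Pmel was not detected with DAPT either, lower by at least 2.17-fold, with its other probe at -0.73. Mitf was detected only with DAPT on day 7, with a difference of 0.00 there, and Tyr was detected on no array. The part of these cell types in the results below was not tested, and in such bulk samples fewer cells of a type and less RNA per cell cannot be told apart.

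None of the 8 barrier genes differed by as much as 2-fold in any of the 4 comparisons, each gene taken by its brightest probe. With DAPT on day 4 their log2 differences ran between -0.46 and 0.89 with a median of 0.33, where all 9913 genes compared had a median of 0.08. On day 7 they ran between -0.28 and 0.41 with a median of 0.08, where 9705 genes had a median of -0.05. On day 4, 7.41% of all genes reached 2-fold between DAPT and no DAPT, and on day 7 2.21% did, so a count of 0 among 8 genes is close to that background. With DAPT, 6 of the 8 were above 0 on day 4 (55.8% of all genes were) and 6 on day 7 (44.1% of all genes). Alox12b, Aloxe3, Abca12 and Elovl4 were above 0 on both days, as were 18.2% of the 9259 genes compared on both. Median scaling in place of quantile normalization lowered the median of all genes to -0.10 on day 4 and raised it to 0.17 on day 7, and the count above 0 became 3 of 8 on day 4 and 8 of 8 on day 7. Under that scaling, of the 4 named genes Alox12b and Elovl4 kept a positive sign on both days, as did Ugcg, making 3 of 8 beside 25.7% of all genes.

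**Figure D1:**
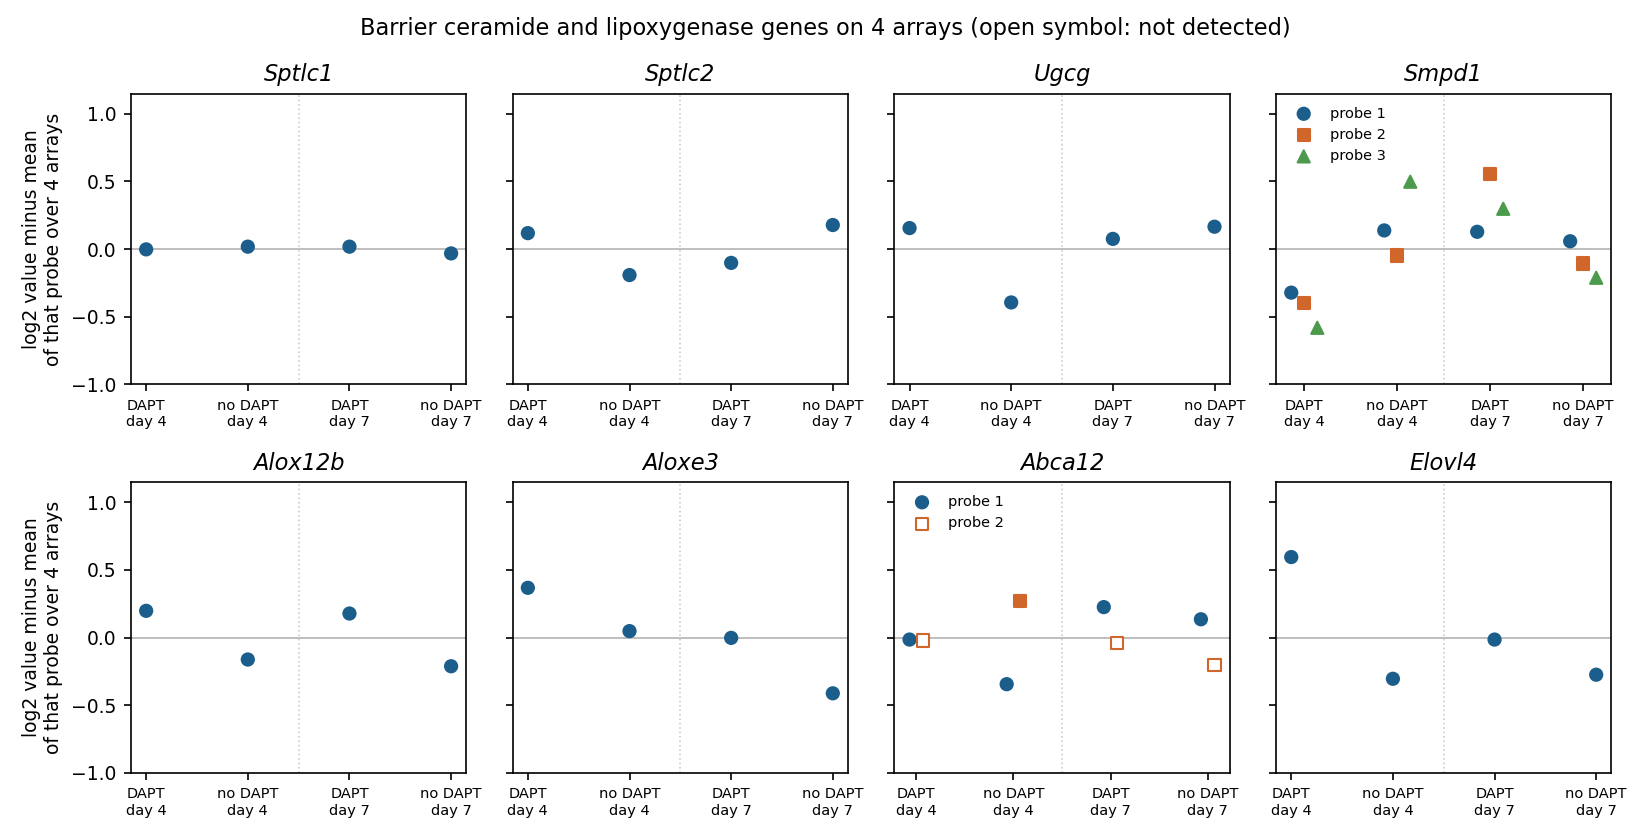
Log2 normalized intensity of each probe of the 8 genes on the 4 arrays, as the deviation from that probe's own mean over the arrays. The x axis gives the 4 arrays, symbols separate probes of a gene, and open symbols mark probes not detected there. Among the brightest probes, Sptlc1 stays within 0.06 over the arrays, while Elovl4 spans 0.89, with its highest value with DAPT on day 4. The less bright Smpd1 probes span 0.95 and 1.08.

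The subunits of the enzyme that starts ceramide synthesis differed little between arrays. Sptlc1, the subunit shared by all forms of serine palmitoyltransferase, had 10.66 on day 4 and 10.68 on day 7 with DAPT, against 10.68 and 10.63 without DAPT. Its whole range over the 4 arrays was 0.06, the narrowest of the 8 genes. Sptlc2, which carries the catalytic site of the enzyme, had 6.65 on day 4 and 6.43 on day 7 with DAPT, against 6.34 and 6.71 without DAPT. Its differences with DAPT were 0.31 on day 4 and -0.28 on day 7, each less than the SD between probes. Under median scaling both signs turned, to -0.05 on day 4 and 0.07 on day 7.

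Ugcg, glucosylceramide synthase, which makes the form of ceramide that is packed into lamellar granules, had 11.79 on day 4 and 11.71 on day 7 with DAPT, against 11.24 and 11.80 without DAPT. The untreated day 4 array was the low one, and the other 3 lay within 0.09 of each other. Its difference with DAPT on day 4 was 0.55, between 0.50 and 0.55 over the processing alternatives, and 18% of all genes lay as high. On day 7 it was -0.09, and 0.04 under median scaling. The comparison of the days without DAPT, at 0.56, uses the same low array and so is not a separate observation.

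Smpd1, the acid sphingomyelinase that makes ceramide from sphingomyelin, was measured by 3 probes, all detected on every array. The brightest had 10.02 on day 4 and 10.47 on day 7 with DAPT, against 10.48 and 10.40 without DAPT. The other probes had 6.51 and 7.46 with DAPT against 6.86 and 6.80 without DAPT, and 7.36 and 8.24 with DAPT against 8.44 and 7.73 without DAPT. On each of the 3 probes the DAPT array of day 4 was the lowest of the 4. The differences with DAPT on day 4 were -0.46, -0.35 and -1.08, so that 1 probe passed 2-fold (lower with DAPT, 0.474 of the untreated value) and the others did not. On day 7 the same probes stood at 0.07, 0.67 and 0.51. The probes shared their direction on each day and differed in size, and with the mean over probes Smpd1 stood at -0.63 on day 4 and 0.42 on day 7.

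The lipoxygenase genes were both higher with DAPT on each day, by amounts near the error between probes and, for Aloxe3 on day 4, with a sign that turned under median scaling. Alox12b, the enzyme that first oxygenates the linoleate chain, had 8.81 on day 4 and 8.79 on day 7 with DAPT, against 8.45 and 8.40 without DAPT. Both DAPT arrays lay above both untreated arrays, by 0.35 on day 4 and 0.39 on day 7. Over the alternatives these values ran between 0.08 and 0.35 on day 4 and between 0.36 and 0.69 on day 7. An order with both DAPT arrays on top needs a difference above 0 on both days, which 18.2% of the genes compared on both had. The share of all genes with the full order was not counted. Aloxe3, which turns the hydroperoxide made by Alox12b into an epoxyalcohol, had 7.47 on day 4 and 7.10 on day 7 with DAPT, against 7.15 and 6.69 without DAPT. Here the groups overlapped, since the untreated day 4 array lay above the DAPT array of day 7. Its differences were 0.32 on day 4, which was -0.04 under median scaling, and 0.41 on day 7, between 0.31 and 0.75 over the alternatives. On day 7, 13.9% of all genes lay as high as Alox12b and 13.4% as high as Aloxe3. In the RefSeq annotation of GRCm38.p6 these genes are neighbours on chromosome 11, with Hes7 before Aloxe3 and Alox8 after Alox12b, counting protein-coding genes. Alox8 was not detected on any array.

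Abca12, the lipid transporter of lamellar granules, had 7.15 on day 4 and 7.39 on day 7 with DAPT, against 6.82 and 7.30 without DAPT. The differences with DAPT were 0.33 on day 4, which was -0.03 under median scaling, and 0.09 on day 7. Its other probe was detected on the untreated day 4 array (detection p-value 0.0038) and not with DAPT on day 4 (0.244), with DAPT on day 7 (0.13) or without DAPT on day 7 (0.28). On day 4 that probe gave a value lower with DAPT by at least 1.2-fold, counting its background-level signal as a bound, so the probes pointed in opposite directions and no direction is given for the gene.

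By the brightest probe of each gene, Elovl4 had the widest range of the 8, though the less bright Smpd1 probes spanned more, 0.95 and 1.08. Elovl4 is among the 6 members measured by 1 probe, so no other probe checks its values. It had 9.13 on day 4 and 8.52 on day 7 with DAPT, against 8.23 and 8.26 without DAPT. Both DAPT arrays lay above both untreated arrays, and the untreated arrays differed by 0.02. Here too the share of all genes with this order was not counted. The difference with DAPT on day 4 was 0.89, or 1.85-fold, with 5.68% of all genes as high, and it ran between 0.62 and 0.89 over the alternatives. On day 7 it was 0.26, less than the SD between probes, and 0.57 under median scaling. By the brightest probes and quantile normalization, Elovl4 alone was past 1.5-fold with DAPT on day 4, where 16.2% of all genes were that much higher, and on day 7 0 members were (7.41% of all genes). With the mean over probes Smpd1 was also past 1.5-fold on day 4, at -0.63, and under median scaling Alox12b and Aloxe3 were on day 7, at 0.69 and 0.75.

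**Figure D2:**
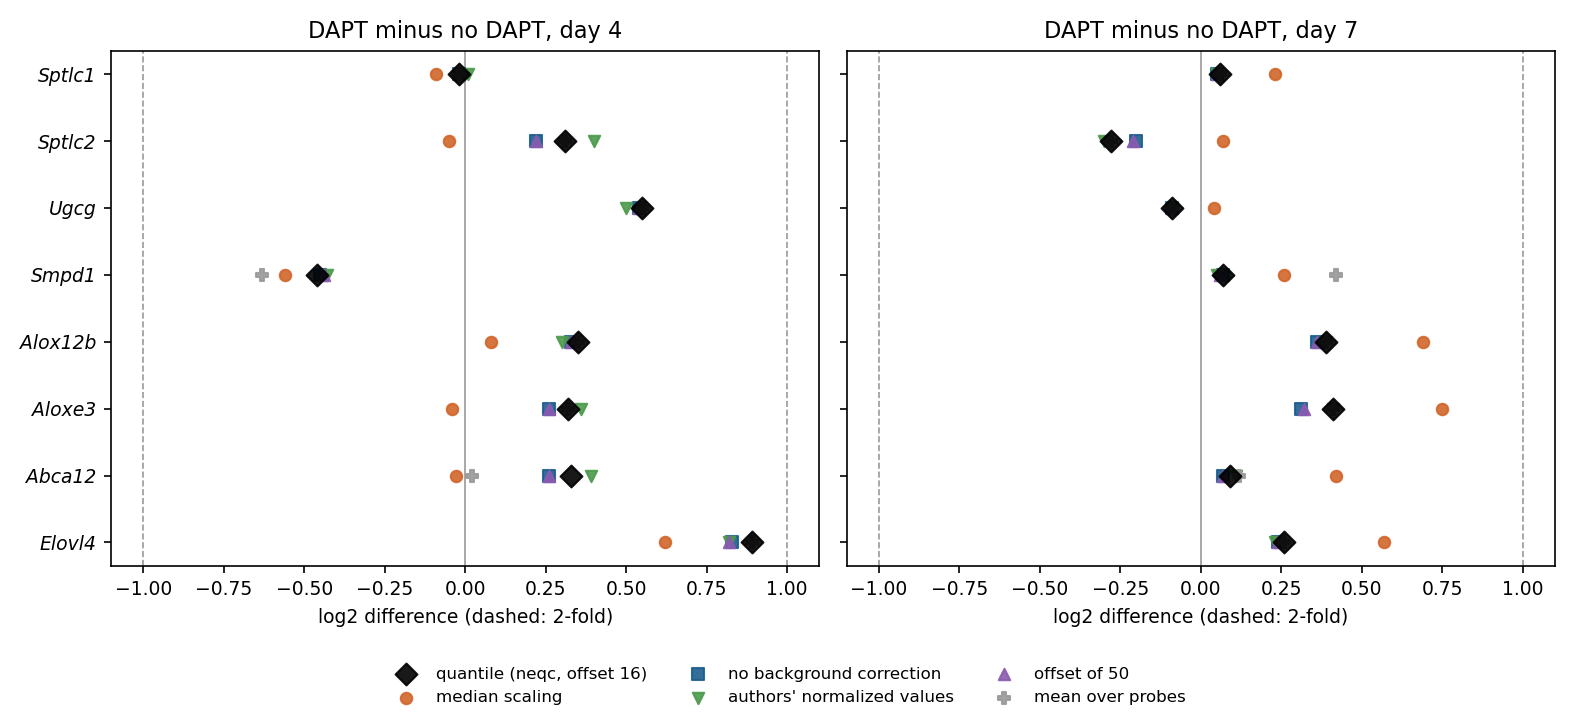
Log2 difference between DAPT and no DAPT for each of the 8 genes on day 4 (left) and day 7 (right), 1 symbol for each way of processing; dashed lines mark 2-fold. All symbols lie inside 2-fold, Elovl4 is the highest on day 4 at 0.89, median scaling (circles) turns the day 4 sign of Sptlc2, Aloxe3 and Abca12 and the day 7 sign of Sptlc2 and Ugcg, and the authors' values turn that of Sptlc1 on day 4.

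The promoters of Elovl4 and Alox12b, whose DAPT arrays both lay above both untreated arrays, and of Abca12, whose probes disagreed, are shown for context, since DAPT acts on the pathway that ends at the DNA-binding protein RBPJ. RefSeq promoters were found for 7 of the 8 genes (Aloxe3 is named only), and the 250 bases before the annotated start (GRCm38.p6, printed along the gene's strand) were searched on both strands for TGGGAA, the core of the RBPJ site. Capitals mark a match on either strand.
Elovl4 (chr9:83806306-83806555, strand -): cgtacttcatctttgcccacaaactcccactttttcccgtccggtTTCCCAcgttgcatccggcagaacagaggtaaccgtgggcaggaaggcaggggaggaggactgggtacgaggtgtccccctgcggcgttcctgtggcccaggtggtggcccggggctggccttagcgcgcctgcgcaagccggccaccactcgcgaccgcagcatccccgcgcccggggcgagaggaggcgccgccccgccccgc
Alox12b (chr11:69156822-69157071, strand +): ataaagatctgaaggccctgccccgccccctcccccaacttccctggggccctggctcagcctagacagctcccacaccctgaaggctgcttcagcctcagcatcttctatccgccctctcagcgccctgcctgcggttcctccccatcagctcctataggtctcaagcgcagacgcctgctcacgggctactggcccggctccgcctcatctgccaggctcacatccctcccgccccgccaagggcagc
Abca12 (chr1:71414911-71415160, strand -): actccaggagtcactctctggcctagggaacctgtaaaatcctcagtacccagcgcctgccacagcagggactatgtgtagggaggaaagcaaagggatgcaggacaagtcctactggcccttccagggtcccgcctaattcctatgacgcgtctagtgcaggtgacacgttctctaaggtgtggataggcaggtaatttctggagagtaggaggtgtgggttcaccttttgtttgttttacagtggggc
Of the 7 promoters, that of Elovl4 held 1 match, on the reverse strand, beginning 205 bases before the start, and the other 6 held none. Among 32841 promoters in the table, 21.6% held at least 1 match, so 1 of 7 is an ordinary share. The AP-1 site TGANTCA (6.75% of all promoters) and the TATA box TATAAA (12.4%) were found in none of the 7 on either strand. The promoters ranged in the ratio of observed to expected CpG from 0.29 for Abca12 and 0.46 for Alox12b to 1.02 for Sptlc1 and 1.07 for Ugcg, with a median of 0.37 over all promoters. These are descriptions of letters and do not show binding.

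Over both days together, a limma model with additive terms for treatment and day gave no call for any of the 8 genes. Elovl4 had the largest fitted difference with DAPT, 0.58 (SE 0.38, 95% interval -0.18 to 1.33, adjusted p = 1 over 10359 genes). Alox12b stood at 0.37 (-0.38 to 1.13) and Aloxe3 at 0.37 (-0.39 to 1.12). The other 5 intervals lay inside 2-fold in either direction. Ugcg stood at 0.23 (-0.52 to 0.98), Abca12 at 0.21 (-0.54 to 0.96) and Smpd1 at -0.19 (-0.95 to 0.56). Sptlc1 stood at 0.02 (-0.73 to 0.77) and Sptlc2 at 0.01 (-0.74 to 0.77). At an unadjusted p of 0.05, 0 of the 8 genes passed, beside 1.96% of all genes; 12 genes (0.116%) passed after Benjamini-Hochberg adjustment. The model has 1 residual degree of freedom, the difference between the DAPT effects of the 2 days, and used 1 SD of 0.384 for every gene, so these intervals rest on that shared spread.

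**Figure D3:**
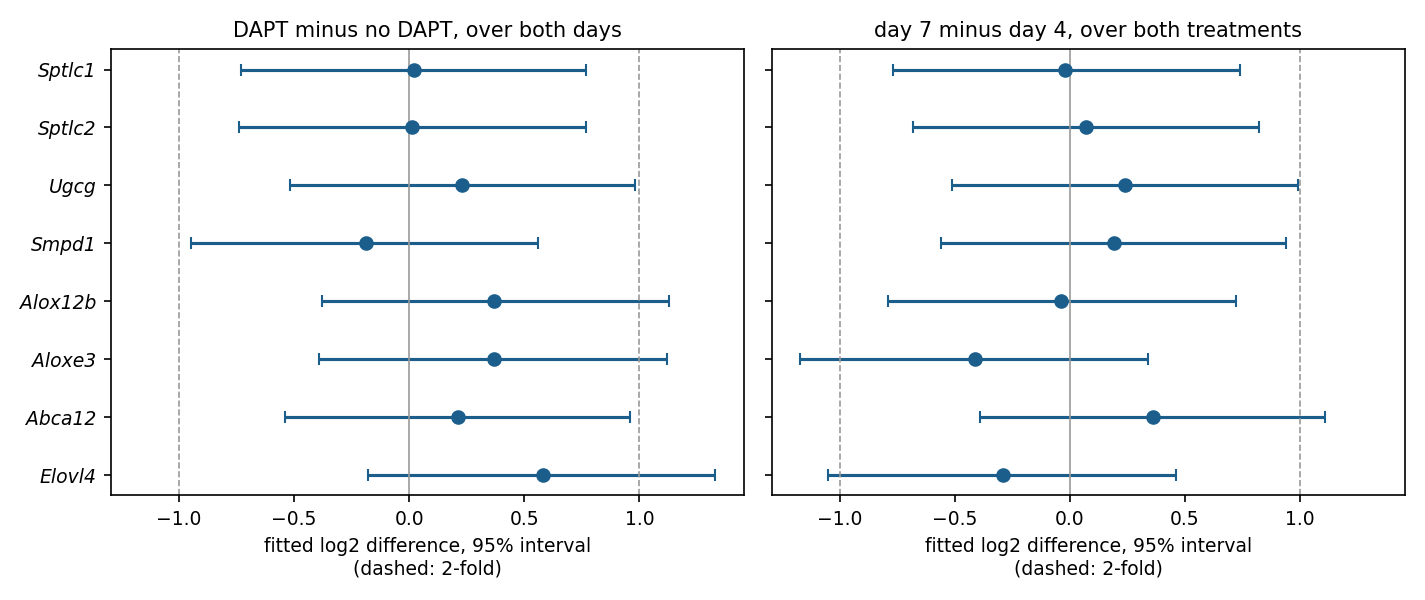
Fitted log2 differences of the 8 genes from the additive limma model, for DAPT minus no DAPT over both days (left) and day 7 minus day 4 over both treatments (right). Points are estimates from 4 arrays and bars are 95% intervals; every bar crosses 0, and for DAPT those of Alox12b, Aloxe3 and Elovl4 reach past 2-fold (dashed).

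Between the days the 8 genes also stayed inside 2-fold, against 14.1% of all genes past it without DAPT and 5.12% with DAPT. On day 7 without DAPT 4 of the 8 were above 0 (56.1% of all genes) and with DAPT 3 were (47.1%). Their median was -0.02 without DAPT and -0.05 with DAPT, where all genes had medians of 0.09 and -0.03. Elovl4 stood at -0.61 on day 7 against day 4 with DAPT (-0.61 to -0.46 over the alternatives), past 1.5-fold as 9.42% of all genes were in that direction, and at 0.02 without DAPT, which was -0.41 under median scaling. Aloxe3 stood at -0.37 with DAPT and -0.46 without DAPT, negative in every alternative run (-0.97 to -0.35 without DAPT). Abca12 stood at 0.24 with DAPT and 0.48 without DAPT on its brighter probe, where median scaling gave -0.02 and the mean over probes 0.00. Without DAPT its other probe was lower on day 7 by at least 1.32-fold, so the probes disagreed here too. Alox12b stood at -0.01 with DAPT, 0.15 under median scaling, and at -0.06 without DAPT. Smpd1 stood at 0.45 with DAPT and -0.07 without DAPT on its brightest probe. With DAPT its other probes stood at 0.95 and 0.88, and the gene at 0.76 with the mean over probes and 0.59 under median scaling, both past 1.5-fold. Sptlc2 stood at -0.22 with DAPT and 0.37 without DAPT, the second of these -0.13 under median scaling. Ugcg stood at -0.08 with DAPT and 0.56 without DAPT, and Sptlc1 at 0.02 and -0.05. In the additive limma model no member was called for day, with Aloxe3 at -0.41 (adjusted p = 0.937) and Abca12 at 0.36 (adjusted p = 0.972), while 1.83% of all genes were called and 0 of the 8 passed an unadjusted p of 0.05, beside 9.41% of all genes.

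Genes of the wider lipid pathway passed 2-fold with DAPT at rates near those of all genes. Of 96 genes on 6 lists, 89 were on the array, and on day 4, of 67 compared, 3 were higher with DAPT by 2-fold or more and 2 were lower (7.46%, beside 7.41% of all genes). Under median scaling this balance turned, to 0 higher and 5 lower, the 5 being St3gal5, Pnpla1, Kdsr, Sphk1 and Sgpl1, while the authors' values gave 8 higher and 1 lower. Under quantile normalization another Sphk1 probe stood at 0.61 on day 4 and the other Sgpl1 probe at 0.40, opposite to the brightest probes. On day 7 1 of 68 was higher and 0 lower (1.47%, beside 2.21%). Between the days the listed genes passed 2-fold in 2.86% with DAPT, beside 5.12% of all genes, and in 7.35% without DAPT, beside 14.1% of all genes. Of the de novo synthesis genes, 0 of 11 passed 2-fold on day 4 and 0 of 9 on day 7, with Kdsr, which reduces the first product of the pathway, at -0.84 on day 4 and past 2-fold at -1.19 under median scaling. Degs1, the desaturase that completes ceramide, stood at 0.14 and 0.24, and Cers2, a ceramide synthase for very long chains, at -0.12 and 0.22. Among the genes that break ceramide down or convert it, 1 of 18 was higher on day 4 and 1 lower. Acer2, a ceramidase, had 9.09 with DAPT against 8.06 without DAPT on day 4 and 8.98 against 8.60 on day 7. St3gal5, which makes the ganglioside GM3, had 7.17 with DAPT against 8.19 without DAPT on day 4 and 7.31 against 8.04 on day 7, a difference of -1.01 and -0.73 with its other probe at -0.39 and -0.19. On day 7 Acer1, the ceramidase of differentiating epidermis, had 6.81 with DAPT against 5.63 without DAPT, higher by 1.18 on this probe and by 0.29 on its other.

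**Figure D4:**
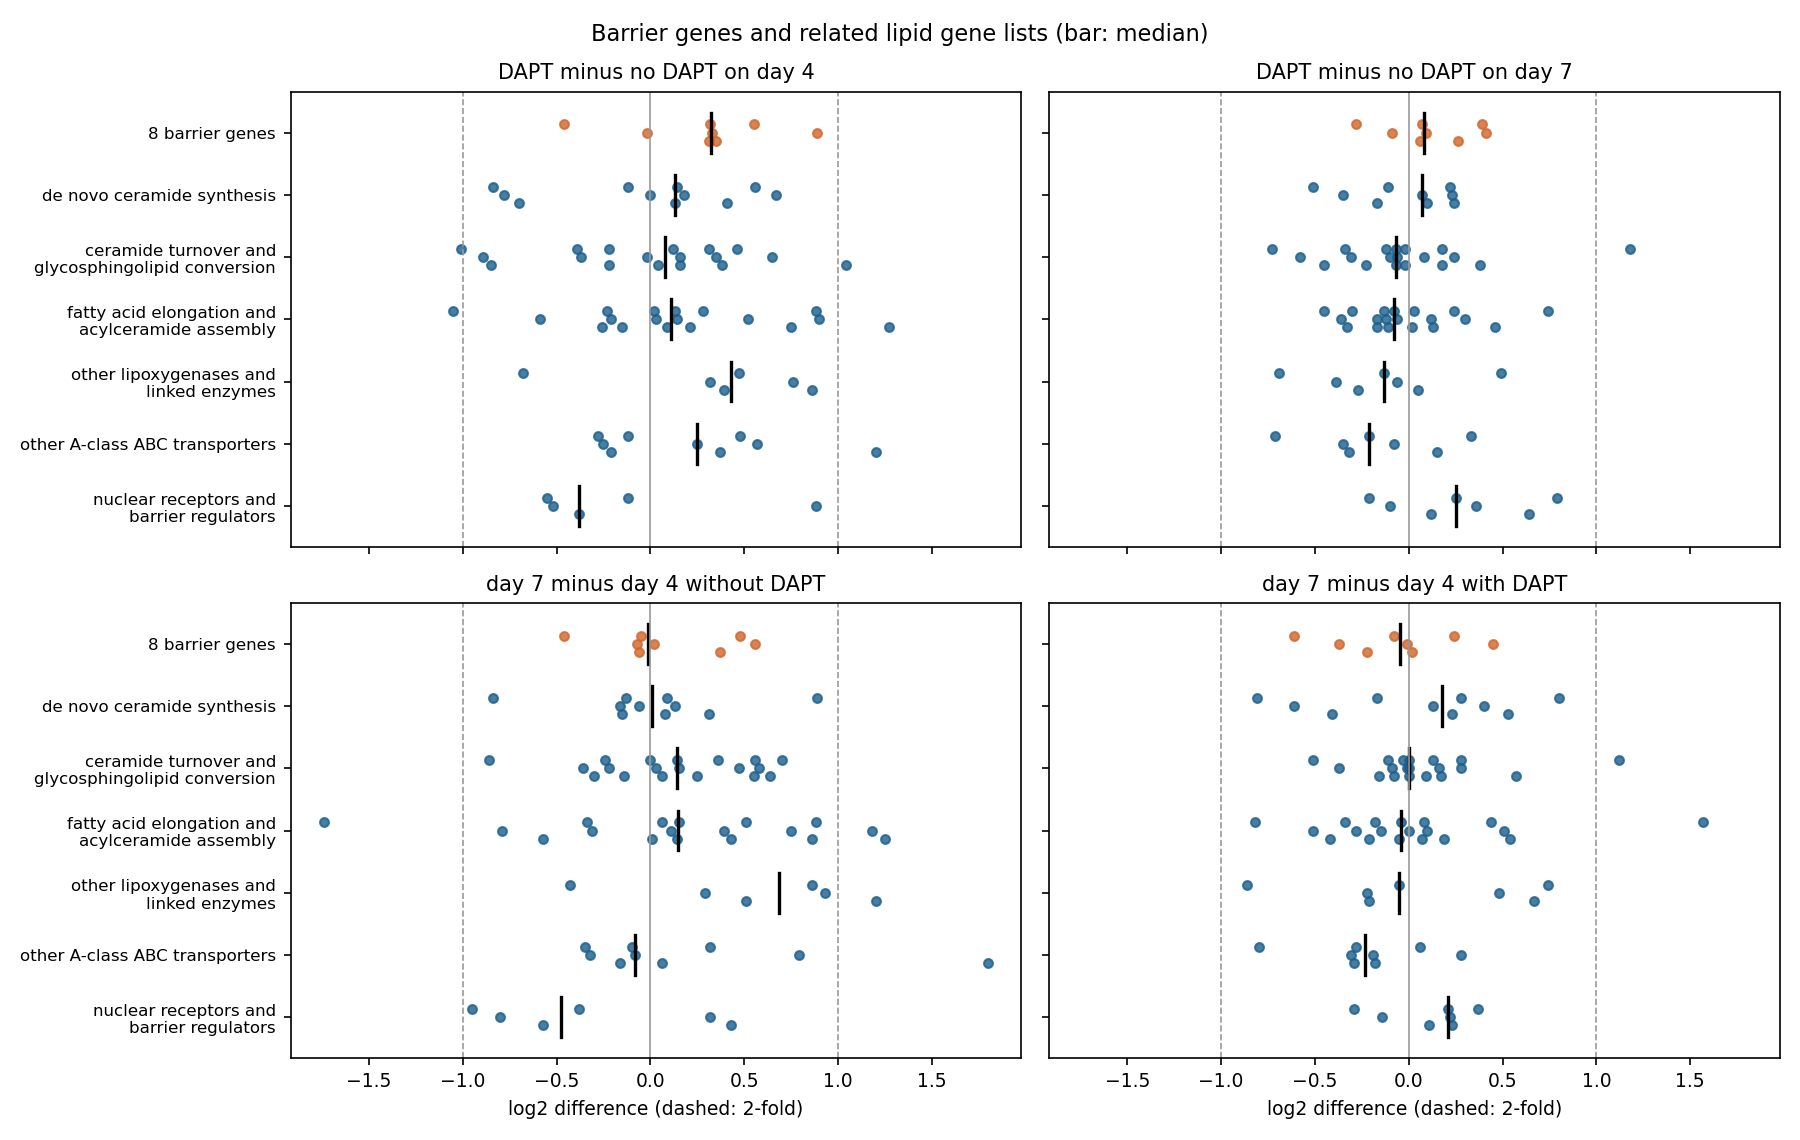
Log2 differences of the 8 barrier genes (top row of each panel) and of the detected genes of 6 related lipid lists, for the 4 comparisons. Each point is 1 gene, short bars are medians and dashed lines mark 2-fold; the 8 barrier genes all lie inside it, and 3 listed genes are past it upward and 2 downward with DAPT on day 4.

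Among genes of fatty acid elongation and acylceramide assembly, 1 of 18 was higher and 1 lower with DAPT on day 4, and 0 of 19 passed 2-fold on day 7. Dgat2, which makes triacylglycerol, had 7.87 with DAPT against 6.60 without DAPT on day 4, a difference of 1.27, which was 0.93 under median scaling. Pnpla1, the enzyme that joins linoleate to the long ceramide chain, had 8.18 with DAPT against 9.23 without DAPT on day 4 and 7.36 against 7.49 on day 7. It differed by -1.05 on day 4, in the direction opposite to Elovl4. Of the 4 other elongases detected on all arrays, on day 4 Elovl5 stood at 0.88, Elovl6 at 0.75, Elovl7 at 0.90 and Elovl1 at 0.13, with another Elovl1 probe at -1.12. Median scaling gave 0.77, 0.44, 0.56 and 0.09 for these genes. On day 7 they lay between -0.12 and 0.12 on their brightest probes, and under median scaling all of these were above 0. The Elovl1 probes ran between -0.17 and 1.54 on day 7. Over the days Pnpla1 fell by 1.28 and Lipn, an epidermal lipase, rose by 1.37 in the additive limma model (adjusted p = 0.0479 and 0.0236). These were the only 2 of 72 listed genes called for day, and each was called in 2 of 8 alternatives. The genes listed as other lipoxygenases and linked enzymes had a median of 0.43 on day 4 and -0.13 on day 7, with 0 past 2-fold. Of the lipoxygenases among them, Alox12 stood at 0.47 and -0.69 (its other probe at -0.05 on both days) and Alox15 at 0.32 and -0.39 (its other probe at 0.10 and -0.57). Median scaling gave 0.12 and -0.40 for Alox12 and 0.02 and -0.10 for Alox15. Alox12e was not detected on any array. Ephx2, an epoxide hydrolase, was higher on day 7 without DAPT by 1.20 and differed by 0.48 with DAPT. Median scaling gave 0.78 and 0.70 for Ephx2, both inside 2-fold. Of the other A-class transporters, Abca1, which exports cholesterol, had 6.41 with DAPT against 5.21 without DAPT on day 4 and 6.69 against 7.01 on day 7, where its difference was -0.32, and 0.02 under median scaling. Of the nuclear receptors and regulators, 0 of 5 passed 2-fold on day 4 and 0 of 7 on day 7, and Ppara and Ppard were not detected on any array.

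Markers of the outer epidermis that do not act on lipids were followed on the same arrays. Of 7 detected spinous and granular markers, on day 4 4 were higher with DAPT by 2-fold or more (Rptn, Klk7, Cnfn and Casp14) and 1 lower (Ivl). Of all genes 3.81% were that much higher and 3.6% lower. Under median scaling Casp14 stood at 0.72, inside 2-fold. On day 7 3 were higher and 0 lower, beside 1.71% and 0.495% of all genes. The median difference of these markers was 1.05 on day 4 and 0.18 on day 7. Of 8 basal markers, 2 were also higher with DAPT by 2-fold or more on each day and 0 lower. Those of day 4 lay inside 2-fold under median scaling. The spinous and granular list is known from earlier results of these arrays, and the difference between it and the lipid genes was not tested.

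Genes whose profile over the 4 arrays was nearest to that of a member were found by the root mean square distance between mean-centred log2 values, among 8255 other genes detected on all arrays. With 4 arrays many genes lie close to any profile. For Elovl4 the nearest were Gcnt1 at 0.025, Rfc4 at 0.046 and Lor, which encodes loricrin of the cornified envelope, at 0.062, and 18 genes lay within 0.1. Gcnt1, an enzyme that branches O-linked glycans, had 6.90 on day 4 and 6.34 on day 7 with DAPT, against 6.07 and 6.09 without DAPT. For Aloxe3 they were Snrpd1 at 0.044, Trim29 at 0.048 and Llgl2 at 0.050, of 27 within 0.1. For Abca12 they were Siva1 at 0.008, Slc25a20 at 0.018 and Map1lc3a at 0.019, of 332 within 0.1.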

How the data were processed

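Total RNA of 4 samples was hybridised to Illumina bead arrays, 1 array per group. The deposited non-normalized table gives an intensity per probe on a linear scale and a detection p-value beside each, per the file headers. Background subtraction by the authors is read from the values, of which between 5177 and 5847 per array lie below 0. The authors also deposited a normalized intensity for each probe, with medians per array between 24.7 and 26.0 and the method not given in the sources used here. The submitters' processing notes name BeadStudio.

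From the non-normalized intensity, limma 3.58.1 (R 4.3.3, function neqc) corrected background from the detection p-values, added an offset of 16, quantile-normalized the arrays and put the deposited intensities on log2. The platform annotation named 23978 of 25697 probes with 1 symbol and 1719 are unnamed here. A gene with several probes was counted by the probe with the highest mean, and every probe of the 8 genes is reported. Genes entered a comparison if detected (p under 0.01) on 1 of its 2 arrays. Where 1 array did not detect a probe, a bound was taken against the higher of that array's lowest detected signal and the probe's own. With 1 array per group no difference between arrays has a p-value. The additive limma model was adjusted by Benjamini-Hochberg over 10359 genes with a threshold of 0.05 and checked on simulated data. Most simulated 2-fold changes were not called, so a missing call does not show that a gene was unchanged. The model's p-values rest on the difference between the DAPT effects of the 2 days, pooled over genes, and not on replicate arrays. No label says whether the cultures were separate. The number of arrays limits the precision. Alternatives were median scaling, no background correction, the authors' values floored at 16, an offset of 50, the mean over probes, other detection filters and a model with 1 factor. The 8 genes and all lists were chosen with earlier results of these data known. Named list genes are those past 2-fold, at most 4 per list and comparison, with up to 2 others as examples, and the 3 nearest profiles for each of the 3 members of widest range; Alox8, Alox12e, Ppara and Ppard are named as not detected, and the elongases, Kdsr, Sphk1, Sgpl1, the melanocyte markers and the 5 spinous and granular genes past 2-fold as context, after their values were seen. Python 3.11.15 with pandas 2.3.3 and matplotlib 3.10.9 made the tables and plots.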

Additional observations from a re-analysis of the deposited data

Results flagged for a closer look

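For 5 of the 8 genes a difference had opposite signs in the 2 settings where it was measured, on single arrays and with no test of the difference. Among the 9164 genes compared in all 4 comparisons, 72.6% showed such opposite signs. The value given is the difference with DAPT on day 7 minus that on day 4, which equals the day difference with DAPT minus that without. It was -0.64 for Ugcg, -0.59 for Sptlc2, 0.52 for Smpd1 and 0.07 for Sptlc1, whose differences with DAPT had opposite signs on the 2 days, as had their day differences with and without DAPT. It was -0.63 for Elovl4, whose day differences had opposite signs and whose differences with DAPT were both above 0. Under median scaling 7 of the 8 genes had such opposite signs, beside 71.6% of the 9164 genes. Alox12b, Aloxe3 and Abca12 joined, and Elovl4 left, since its day differences were both below 0. The signs of Sptlc2 and Ugcg with DAPT on day 7 and of Sptlc2 on day 4 turned under that scaling. With the authors' values the differences of Sptlc1 with DAPT were both above 0, at 0.01 on day 4 and 0.05 on day 7. The Sptlc1 value is smaller than the SD between probes on either day (0.50 and 0.34).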

How the results depend on the processing

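The count of barrier genes past 2-fold was 0 in each of the 4 comparisons and in each of the 7 alternatives run for it. All 8 genes were detected on all 4 arrays, so the other detection filters could not change that count. The count called by the limma model was 0 for DAPT and for day in each alternative that kept all 4 arrays. For DAPT, median scaling, the mean over probes, no detection filter and day left out called 0 of all genes, so a count of 0 members was fixed there. For day the same holds for median scaling and no detection filter. Of 136 alternative values of single differences, 132 moved by less than the SD between probes and 10 had the opposite sign, 9 of these among the 32 under median scaling. Beyond that SD moved Sptlc2 (0.07) and Abca12 (0.42) with DAPT on day 7 under median scaling, and Smpd1 with the mean over probes, to 0.42 with DAPT on day 7 and 0.76 on day 7 against day 4 with DAPT. Leaving out background correction or changing the offset keeps each probe's rank on its array, and quantile normalization then keeps the sign. Values from those alternatives could not turn, so the share of turned signs over all 136 overstates how stable the signs are. The sign change outside median scaling came with the authors' values. Counts over all genes depended more on the setting. At 2-fold with DAPT on day 4, 735 genes (378 higher, 357 lower) became 877 with median scaling (199 and 678), 361 without background correction, 1259 with the authors' values and 363 at offset 50. On day 7, 214 (166 and 48) became 368 with median scaling (350 and 18), 72 without background correction, 75 at offset 50 and 650 with the authors' values (350 and 300). Between the days, 1390 without DAPT (740 and 650) became 801 without background correction and 786 with an offset of 50, and 1549 with median scaling (332 and 1217). With DAPT, 505 (303 and 202) became 253 and 249 in the first 2 of these, 556 with median scaling (427 and 129) and 1012 with the authors' values. The limma calls for DAPT, 12, became 7 without background correction, 2 with the authors' values, 1 at offset 50 and 0 with median scaling, the mean over probes, no detection filter or day left out. Those for day, 190, became 82 with an offset of 50, 40 with the mean over probes, 1 with DAPT left out and 0 with median scaling or no detection filter; leaving out 1 array from the model with 1 factor gave between 1 and 263. The cause was not tested. No paired analysis was possible because each group holds 1 array and the labels give no replicate numbers; day already stands in the additive model.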
